A study of Mus musculus with 3 samples.

Results

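The cells described here are the Hox-high T-negative cells of Epi cysts. They carry the transcripts of Hoxb1, Hoxb2 and Hoxa2, which pattern the hindbrain and posterior body of the embryo, and no transcript of the primitive streak gene T. They were chosen by measured values. Of the 655 embryonic cells of the Epi cyst library, the 156 with no unique molecular identifier (UMI) of T and a summed level of the 3 Hox genes of at least 50 CPM, that is UMIs relative to all UMIs of the cell, were taken as members, which was 23.8% of these cells (20.6 to 27.3%). The other 289 cells without T, with a sum below 50 CPM, are called Hox-low cells, and the 210 cells with a T UMI are called T-positive cells. Over the whole series, 2692 cells passed the same quality filter. The 3 Hox genes and T are described below and support nothing.

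All cells came from the mouse embryonic stem cell line iGATA of strain E14tg2a, in which doxycycline drives a GATA factor that turns cells to primitive endoderm. Epi cysts are balls of epiblast-like cells around a lumen, grown without doxycycline in growth factor-reduced matrigel, for 1 day in 2i and LIF and for 3 days in N2B27 medium. Bilayered embryo-like aggregates (BELAs) were made from cells of clone C6 after a pulse of doxycycline (0.5 µg/ml, 8 h), so that they hold epiblast-like and visceral endoderm-like cells, and VE cysts were made with more doxycycline and with FGF4 at 10 ng/ml beside heparin at 1 µg/ml. Each type of structure gave 1 library, and the labels name no clone for Epi cysts. With 1 library per type there was no replicate, cells are not replicates, and no test was made. Ranges in parentheses are exact 95% intervals, Poisson for levels and Clopper-Pearson for shares, and they cover counting error only.

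Hox genes lie in clusters and are turned on in the order of their position, the anterior genes first, in the posterior epiblast and neural plate of the gastrulating embryo. Retinoic acid, Wnt and FGF signals act on this order, and retinoic acid acts through nuclear receptors that bind direct repeats in DNA. Proteins of the Meis and Pbx families bind DNA together with Hox proteins.

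Hoxb1 (chr11:96365752-96368256), Hoxb2 (chr11:96350525-96354012) and Hoxa2 (chr6:52162417-52164831; all in GRCm38) set the members apart. In the 156 Hox-high cells their summed level ran from 50.5 to 572 CPM with a median of 166 CPM, and in the 289 Hox-low cells it was 0 CPM in 221 cells and reached 47.7 CPM. A Hox-high cell held 2 to 31 UMIs of the 3 genes, with a median of 9. All 3 genes were found in 100 of the Hox-high cells (64.1%), any 2 of them in 49 cells and a single gene in 7 cells. The cells near the threshold were few, 11 Hox-high cells from 50 to 60 CPM and 10 Hox-low cells from 40 to 50 CPM. Pooled over cells, Hoxb1 stood at 63.9 CPM in Hox-high, 2.30 CPM in Hox-low and 30.3 CPM in T-positive cells. Hoxb2 stood at 90.1, 1.51 and 32.9 CPM and Hoxa2 at 31.3, 2.41 and 13.2 CPM. The absence of T rests on low counts too, since 94 of the 210 T-positive cells had a single T UMI and their median was 2. Whether a Hox-high cell had lost a T transcript in capture was not tested.

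**Figure D1:**
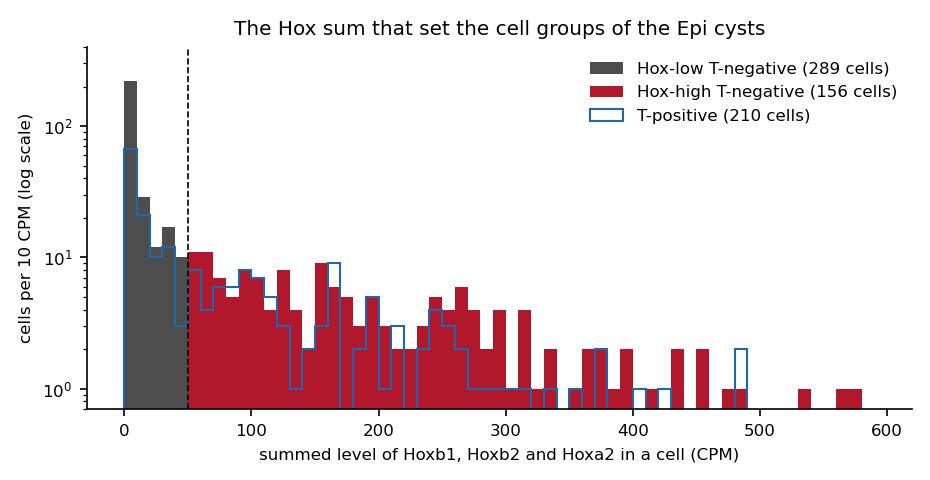
Number of Epi cyst cells (y axis, log scale) in steps of 10 CPM of the summed level of Hoxb1, Hoxb2 and Hoxa2 (x axis), for the 289 Hox-low (grey), 156 Hox-high (red) and 210 T-positive cells (blue line), with the threshold of 50 CPM dashed. The distribution runs on across the threshold with no gap, and T-positive cells spread over the whole range.

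The groups of Epi cyst cells were of like depth and quality. The median cell held 57714 UMIs and 6969.5 genes among Hox-high cells, 59472 UMIs and 6939 genes among Hox-low cells and 63131 UMIs among T-positive cells. Mitochondrial UMIs made up a median of 3.32%, 3.15% and 3.13%. Scrublet, a doublet caller, marked 16 of the 1076 barcodes (1.49%), of which 2 were Hox-high and 6 Hox-low cells, and none were left out. The Epi cyst library shared 2 barcodes with the BELA library and 1 with the VE cyst library, and no barcode that passed the filter was shared. Only 1 cell of the Epi cyst library was extraembryonic, so that the signal of free RNA could not be read from another cell type of that library.

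To see what else sets these cells apart, pooled levels were compared between Hox-high and Hox-low cells over the 7739 genes with at least 10 CPM in either group. The ratio is given on the log2 scale with 5 CPM added to each level, and the median over all genes was 0.014. Of these genes 77 (0.995%) were at least 2-fold higher in Hox-high cells and 28 (0.362%) at least 2-fold lower. Since Hox-high cells were picked on genes of the same cells, these counts describe the 2 groups and are no evidence beyond that. Among the 15 highest were Crabp1, Hes3, Epha4, Olig3, Meis2, Hotairm1, Efnb1, Epha2, Stra6, G0s2, Cited2, Greb1l, Wnt8a and Zfp703. They hold the retinoid carrier Crabp1, the Hox partner Meis2 and genes known from the caudal neural plate, beside genes of other kinds such as G0s2 and Efnb1. The 12 lowest were Otx2, Tdgf1, Fgf5, Trh, Platr10, Utf1, Cldn7, Cldn6, Nodal, Sema6a, Crb3 and Foxd3, in which genes of the anterior and pluripotent epiblast, the Nodal pathway and tight junctions are found. Each list of genes below is read against these shares, although lists also count members under 10 CPM. Without them the higher genes number 1 in place of 2 for other Hox genes, 2 in place of 3 for Hox cofactors, 4 in place of 5 for neural genes, 2 in place of 3 for BMP targets and 0 in place of 1 for surface ectoderm and neural crest genes, and the lower genes 0 in place of 1 for streak and mesoderm genes.

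**Figure D2:**
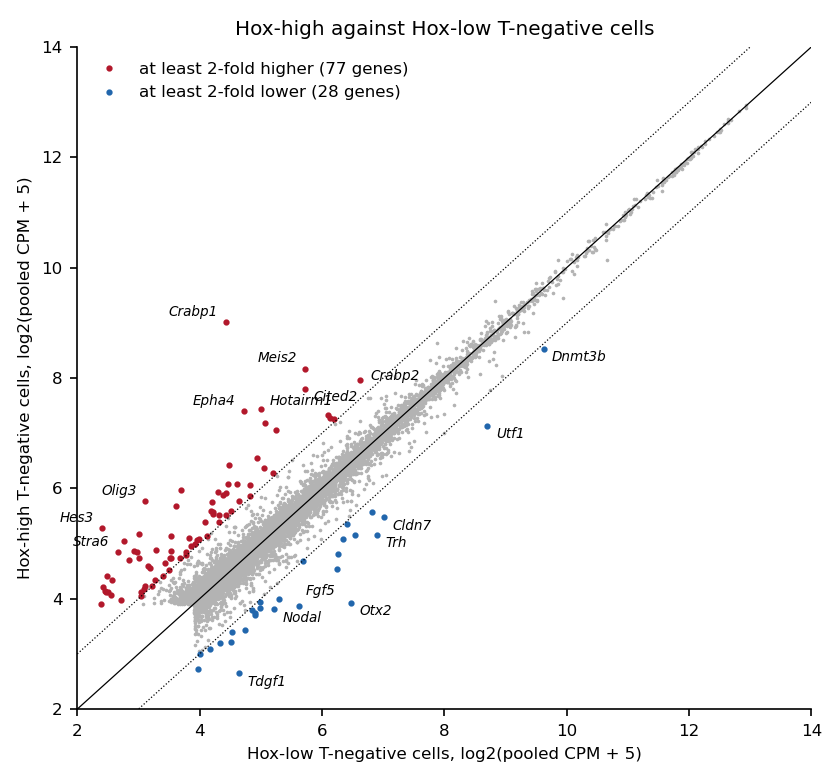
Pooled levels of the 7739 genes in Hox-high cells (y axis) against Hox-low cells (x axis), both as log2 of CPM with 5 CPM added, with the line of equal levels and dotted lines at a 2-fold difference. The 77 genes at least 2-fold higher (red) and the 28 lower (blue) lie apart from a narrow band that holds the rest, and Crabp1 lies farthest above it.

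Genes that bind, take up and make retinoids were among the higher genes. Of 19 measured, Crabp1, Crabp2, Stra6 and Rdh10 were at least 2-fold higher in Hox-high cells and none lower, with a list median of 0.22. Crabp1 (chr9:54764748-54773110), a carrier of retinoic acid in the cytosol, stood at 512 CPM (497.6 to 526.6) in Hox-high and 16.6 CPM (14.8 to 18.6) in Hox-low cells, 30.8-fold (27.4 to 34.8) apart. Its log2 ratio of 4.58 was 3.13 with a Hox threshold of 100 CPM, which moves cells of 50 to 100 CPM to the Hox-low side. This level was unevenly shared. In single Hox-high cells Crabp1 ran from 0 to 6388 CPM with a median of 70.7 CPM, and in Hox-low cells from 0 to 171 CPM with a median of 13.3 CPM, so the groups overlapped in their lower range, and of these 2 groups Hox-high cells alone went above 171 CPM. Crabp2, a carrier that hands retinoic acid to its receptor, was at 245.7 and 93.1 CPM (2.64-fold, 2.48 to 2.81). Stra6, the receptor for the retinol binding protein, was at 23.8 and 1.35 CPM (17.6-fold, 11.6 to 28.1), and Rdh10, which oxidises retinol to retinaldehyde, at 20.0 and 5.83 CPM (3.43-fold, 2.69 to 4.40). Among the enzymes of the next step none was at least 2-fold higher. Aldh1a3 was lower, though within 2-fold, at 19.7 against 34.3 CPM. Aldh1a2 was near absent, with 3 UMIs in Hox-high and none in Hox-low cells, where 0 UMIs allow up to 0.168 CPM. The receptor genes Rara and Rarg stood at 26.7 and 26.2 CPM in Hox-high and 21.5 and 34.6 CPM in Hox-low cells, within 2-fold.

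Retinoic acid receptors bind 2 half-sites set in a row, with a gap of 1, 2 or 5 bases. The half-site searched for was AGGTCA with its variant GGGTCA as well as AGTTCA with its variant GGTTCA, in any pairing. The 250 bases before each transcript start in RefSeq (GRCm38.p6, the build of the files) were searched on both strands for such repeats. A gene can have more than 1 such start. They occur in 140 of all 32851 windows (0.426%), with a gap of 5 in 29 (0.0883%). Of the 323 genes named or listed, 220 had a window, with 282 windows in all. A repeat was found for 3 genes, which were Rarb, Cyp26a1 and the globin gene Hbb-y. Windows were at hand for 15 of the 19 retinoid and 22 of the 39 Hox genes. The windows of the 2 retinoid genes are shown 5′ to 3′ on the gene's strand, with the half-sites in capitals and a gap of 5 bases in each. The Rarb window is chr14:16575477-16575726 (minus strand), with the repeat ending 36 bases before a transcript start. This start lies inside the Rarb gene (chr14:16430839-16819156) and not at its 5′ end. The Cyp26a1 window is chr19:37697558-37697807 (plus strand), with the repeat on the opposite strand 15 bases before the start.
Rarb: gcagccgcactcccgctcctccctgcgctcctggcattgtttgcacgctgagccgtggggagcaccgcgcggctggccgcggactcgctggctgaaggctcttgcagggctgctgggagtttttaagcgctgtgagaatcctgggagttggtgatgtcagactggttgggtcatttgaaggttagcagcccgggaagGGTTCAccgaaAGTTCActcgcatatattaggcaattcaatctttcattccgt
Cyp26a1: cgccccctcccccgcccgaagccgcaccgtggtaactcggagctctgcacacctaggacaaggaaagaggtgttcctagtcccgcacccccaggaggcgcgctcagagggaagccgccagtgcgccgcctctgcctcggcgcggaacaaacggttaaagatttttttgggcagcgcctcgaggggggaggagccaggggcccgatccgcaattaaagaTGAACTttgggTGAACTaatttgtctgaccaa
Rarb, itself a retinoic acid receptor gene, was at 3.30 CPM (2.24 to 4.69) in Hox-high and 0.617 CPM (0.308 to 1.10) in Hox-low cells, found in 16.0% and 3.46% of cells (11.5% and 1.95% once every cell was thinned to 40000 UMIs). Cyp26a1, which breaks retinoic acid down, had 0 UMIs in the 156 Hox-high cells, which allows up to 0.320 CPM, and 6 UMIs or 0.337 CPM in Hox-low cells, a difference too small for this depth to show. It was present elsewhere in the series, in 77.6% of the extraembryonic cells of VE cysts. A repeat in a window is a description of its letters and was not tested as a binding site.

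Among the 36 Hox genes outside the rule, 2 stood at least 2-fold higher in Hox-high cells, Hoxa3 among them, and none was lower. In Hox-high cells 21 had no UMI, so the list median of 0.00 says little about the Hox genes that were found. Hotairm1, an antisense transcript of the Hoxa cluster, was at 169 CPM (160.4 to 177.1) in Hox-high and 27.0 CPM (24.7 to 29.6) in Hox-low cells. It overlaps a gene on the other strand, and whether strand was used in counting is not given in the sources used here, so its share of the reads is uncertain. Hoxa3 was at 7.88 and 0.393 CPM and overlaps Hoxa4, Hoxa5 and Hoxa6 on its own strand, so its share of the reads is uncertain. More posterior genes were low. Hoxa5 stood at 3.73 CPM in Hox-high and 0.561 CPM in Hox-low cells. Hoxa7 was at 0.852 and 0.168 CPM, Hoxb4 at 0.533 and 0.0561 CPM and Hoxb9 at 0.107 and 0 CPM. These levels were higher in Hox-high cells but rest on few UMIs. The more anterior Hoxb3 and Hoxd1, at 0.0561 and 0.168 CPM in Hox-low cells, were low in Hox-high cells too, with Hoxb3 higher there. Hoxb8, Hoxc4, Hoxd3 and Hoxd4 had 0 UMIs there.

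Meis2, given as a marker of these cells, was high in nearly all of them. Of 9 cofactor genes of the Meis, Pbx and Pknox families, which form complexes with Hox proteins, Meis2, Meis3 and Pknox2 were at least 2-fold higher and none lower, with a median of 0.34. Meis2 (chr2:115863064-116065839) stood at 283 CPM (272.4 to 294.1) in Hox-high and 48.0 CPM (44.8 to 51.3) in Hox-low cells, 5.90-fold (5.46 to 6.38) apart. In single Hox-high cells it ran from 0 to 1065 CPM with a median of 270.4 CPM, and in Hox-low cells from 0 to 386 CPM with a median of 16.0 CPM. Of the 156 Hox-high cells 151 lay above the upper quartile of Hox-low cells. Meis3 was at 19.3 and 3.93 CPM and Pknox2 at 8.84 and 0.785 CPM. Pbx2 was level at 55.0 and 56.4 CPM.

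**Figure D3:**
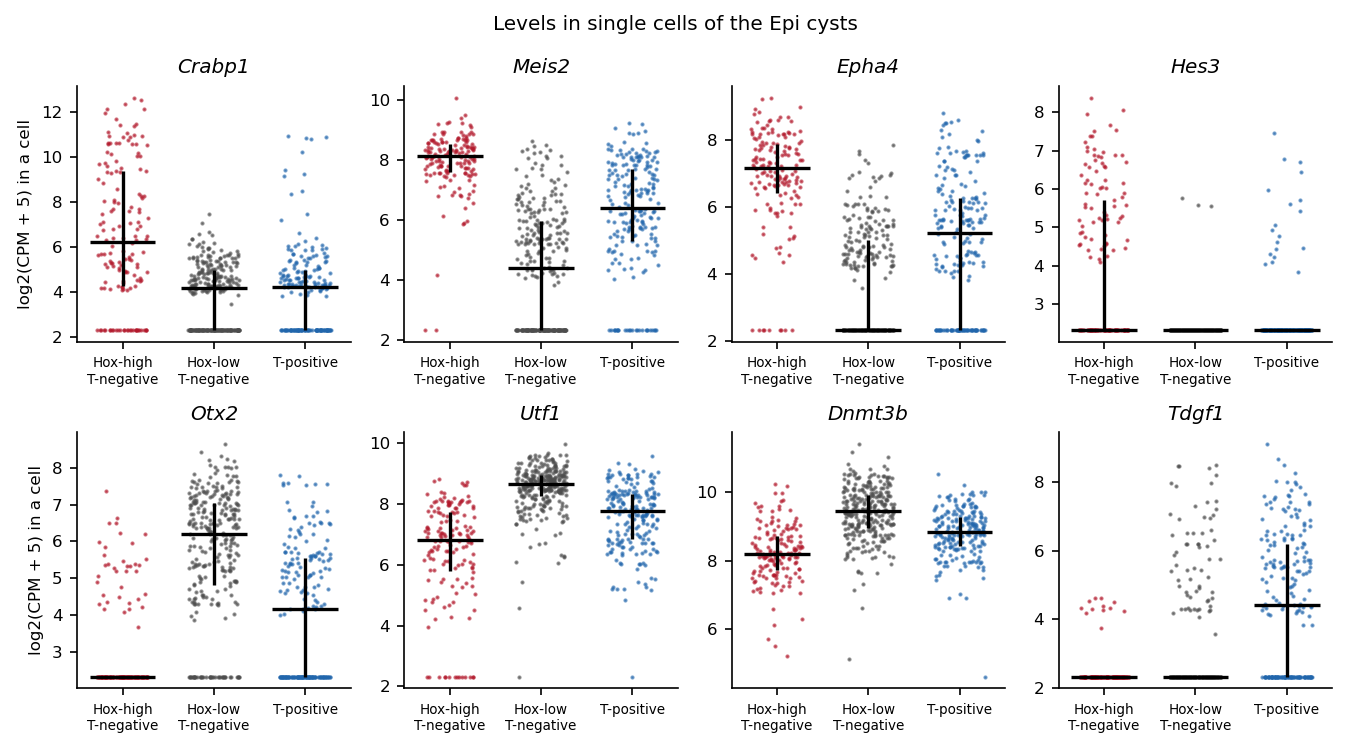
Level of 8 genes in each Epi cyst cell as log2 of CPM with 5 CPM added (y axes), for 156 Hox-high, 289 Hox-low and 210 T-positive cells. Points are cells, horizontal bars medians and vertical bars the interquartile range. Meis2 and Epha4 are shifted up in most Hox-high cells, Crabp1 and Hes3 reach high levels in a part of them, and Otx2, Utf1 and Dnmt3b are shifted down, with the medians of T-positive cells between the other groups for Meis2, Epha4, Otx2, Utf1 and Dnmt3b. Tdgf1 is found in few Hox-high cells and most often in T-positive cells.

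The cells stood on the Gbx2 side of the pair Otx2 and Gbx2, transcription factors of the anterior and posterior epiblast that repress each other at the midbrain-hindbrain boundary. Otx2 stood at 10.2 CPM (8.28 to 12.5) in Hox-high and 84.4 CPM (80.2 to 88.8) in Hox-low cells, 8.26-fold lower, and Gbx2 at 88.9 CPM (83.0 to 95.2) against 25.5 CPM (23.2 to 28.0), 3.48-fold higher. An Otx2 UMI was found in 23.7% of Hox-high and 85.8% of Hox-low cells (20.9% and 78.9% thinned), against 0.173% of the extraembryonic cells of VE cysts at a median of 56914 UMIs. Counted cell by cell, Gbx2 without Otx2 was the pattern of 104 of the 156 Hox-high cells (66.7%, 58.7 to 74.0%) and 21 of the 289 Hox-low cells (7.27%). The opposite pattern was found in 6 Hox-high cells (3.85%, 1.42 to 8.18%) and 142 Hox-low cells (49.1%). Both genes together were seen in 19.9% and 36.7%.

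Of 18 genes of the posterior epiblast and tailbud, Wnt8a, Gbx2, Cdx2, Fgf8 and Sp8 were at least 2-fold higher and none lower, with a median of 0.49. Wnt8a, a ligand of the posterior epiblast, was at 80.9 CPM (75.3 to 86.9) against 17.3 CPM (15.4 to 19.3). Cdx2, a caudal factor, was at 12.6 and 0.449 CPM, and Fgf8, a growth factor of streak and tailbud, at 30.4 and 6.62 CPM. Streak and mesoderm genes were not part of this pattern. Of 19, none was 2-fold higher and Eomes, a factor of the streak and of definitive endoderm, was lower at 1.28 against 8.02 CPM. Their median was 0.01, Msgn1 had 0 UMIs in both groups, and Tbx6 and Mesp1 had 1 and 2 UMIs in Hox-high cells.

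Some genes of the neural plate were higher and others were not. Of 23 neural genes 5 were at least 2-fold higher, among them Olig3, Sox1, Irx3 and Hes5, and none lower, with a median of 0.61, against 0.014 over all genes. The other 18 were within 2-fold with 5 CPM added, which shrinks differences at low levels. Of these, Zic5 was at 46.7 against 89.6 CPM, Zic2 at 68.2 against 102.4 CPM and Nes at 29.7 against 39.5 CPM. By level alone Pax6, Ncam1, Fabp7, Sox21 and Lhx5 were higher in Hox-high cells. Hox-low cells had them at 0.898, 5.16, 2.19, 0.112 and 0.112 CPM. Outside the list, Hes3, a repressor of neuronal differentiation, stood at 33.8 CPM (30.2 to 37.7) in Hox-high cells and at 0.281 CPM, from 5 UMIs, in Hox-low cells. It was found in 75 Hox-high cells (48.1%) and 3 Hox-low cells (1.04%), or 39.6% and 0.781% thinned. Olig3, a factor of the dorsal hindbrain and spinal cord, was at 49.6 and 3.65 CPM (13.6-fold, 10.5 to 17.9). Sox1, which marks neural commitment, was at 12.5 and 0.673 CPM, and in 59 Hox-high cells (37.8%) against 12 Hox-low cells (4.15%), all of them also with Pou5f1. Pax6 was at 6.18 and 0.898 CPM. The forebrain genes Six3 and Hesx1 were near absent in both groups. They had 2 and 0 UMIs in Hox-high cells and stood at 0.281 and 0.0561 CPM in Hox-low cells. Lhx2 and Lhx5 of the same list were low as well. Both were nevertheless higher in Hox-high than in Hox-low cells, which had 0.393 and 0.112 CPM. Of 10 hindbrain genes Epha4 alone was 2-fold higher, at 164 CPM (155.5 to 172) against 21.5 CPM (19.4 to 23.8), and was found in 94.2% and 46.7% of cells (94.96% and 41.4% thinned). Egr2, which marks single hindbrain segments, was low at 1.81 CPM. Genes of the surface ectoderm and neural crest had a median of 0.04 over 16, with Msx1 higher (9.91 and 0.337 CPM) and Foxd3 lower (5.75 and 21.7 CPM).

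Several genes of the formative and primed epiblast were lower in Hox-high cells. Pou5f1 and Sox2 are part of the rule that chose embryonic cells, so their presence was set by it and their values are a description. Pou5f1 was found in each of the 156 Hox-high cells, at 449 CPM (435.9 to 463.1) against 627 CPM (615.6 to 638.9) in Hox-low cells, and Sox2 stood at 94.9 and 85.0 CPM. Of 9 formative and primed genes Otx2, Fgf5, Dnmt3b and Foxd3 were at least 2-fold lower and Cdh2 higher, with a median of -0.99. Fgf5, a growth factor of the early epiblast, was at 9.69 CPM (7.80 to 11.9) against 44.5 CPM (41.4 to 47.7). Dnmt3b, which methylates DNA anew, was at 365 CPM (352.4 to 377) against 785 CPM (771.8 to 797.8), with 127 of 156 Hox-high cells under the lower quartile of Hox-low cells. Of 7 core pluripotency genes 2 were lower. Utf1, which acts on the chromatin of stem cells, stood at 136 against 412 CPM, with 146 of 156 Hox-high cells under the lower quartile of Hox-low cells. The Nodal co-receptor gene Tdgf1 was at 1.28 against 19.9 CPM. Of 12 naive pluripotency genes none differed 2-fold, with a median of -0.01 and Klf2 at 44.0 and 27.8 CPM.

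Each signalling list held at least 1 gene that differed 2-fold. Of 8 Nodal pathway genes Nodal (9.05 and 32.2 CPM) and Tdgf1 were lower in Hox-high cells, while the antagonist Lefty1 was level at 28.4 and 28.8 CPM and the list median was -0.05, or -0.64 over the 5 genes of at least 10 CPM. Nodal and Tdgf1 pass this floor only through Hox-low cells, where they are high, so the second median shows no stronger difference of the list. Of 10 BMP targets Id2 (77.9 and 28.1 CPM), Id3 (155 and 63.7 CPM) and Msx1 were higher, with a median of 0.16. Of 12 Wnt and beta-catenin targets Axin2 was higher at 28.3 against 10.5 CPM, with a median of 0.33, and of 11 FGF and ERK targets Il17rd was higher at 43.4 against 17.95 CPM, with a median of -0.32. The guidance receptor Epha2 (57.7 and 8.02 CPM) and the ligand Efnb1 (27.9 and 1.80 CPM) were among the highest genes, beside Epha4. The co-activator Cited2 stood at 218 and 47.6 CPM. Of 12 epithelial and mesenchymal genes Cdh2 (21.6 and 6.56 CPM) and Zeb2 (49.4 and 20.0 CPM) were higher, and the claudins Cldn6 (23.1 and 71.5 CPM) and Cldn7 (39.4 and 123.7 CPM) lower, while Cdh1 was at 70.3 and 126.7 CPM. The hormone precursor gene Trh was at 30.7 against 114.5 CPM. The log2 ratio of Trh was -1.74, and -0.64 with a Hox threshold of 25 CPM, and that of Tdgf1 was -1.99 and -0.99.

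Cell cycle and stress genes were close in both groups. None of 12 G2/M genes, 12 S phase genes, 13 stress and dissociation genes and 10 p53 targets differed 2-fold, and their medians were -0.16, 0.10, -0.14 and -0.17. Markers of other cell types were low or level. The summed level of 12 extraembryonic endoderm genes ran from 13.0 to 983 CPM in Hox-high cells, with a median of 309.7 CPM, and from 0 to 1045 CPM in Hox-low cells, with a median of 221 CPM. Most of this was Apoe, at 303 and 228 CPM pooled, while Sox17 and Gata6 had 1 and 6 UMIs in Hox-high cells. Gata6, Sox17, Dab2 and Cubn count against a cell in the rule that chose embryonic cells. Their low level was thus set by it and is a description. Germ cell, trophoblast, blood and endothelial, fibroblast and 2-cell-like genes had pooled sums of 17.0, 17.8, 2.24, 11.3 and 0.107 CPM in Hox-high cells and 22.2, 4.88, 4.21, 8.81 and 0.224 CPM in Hox-low cells. Of the genes of these other cell types Cdx2 alone, already named as a posterior gene, differed 2-fold. The part of the extraembryonic genes in the results above was not tested.

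**Figure D4:**
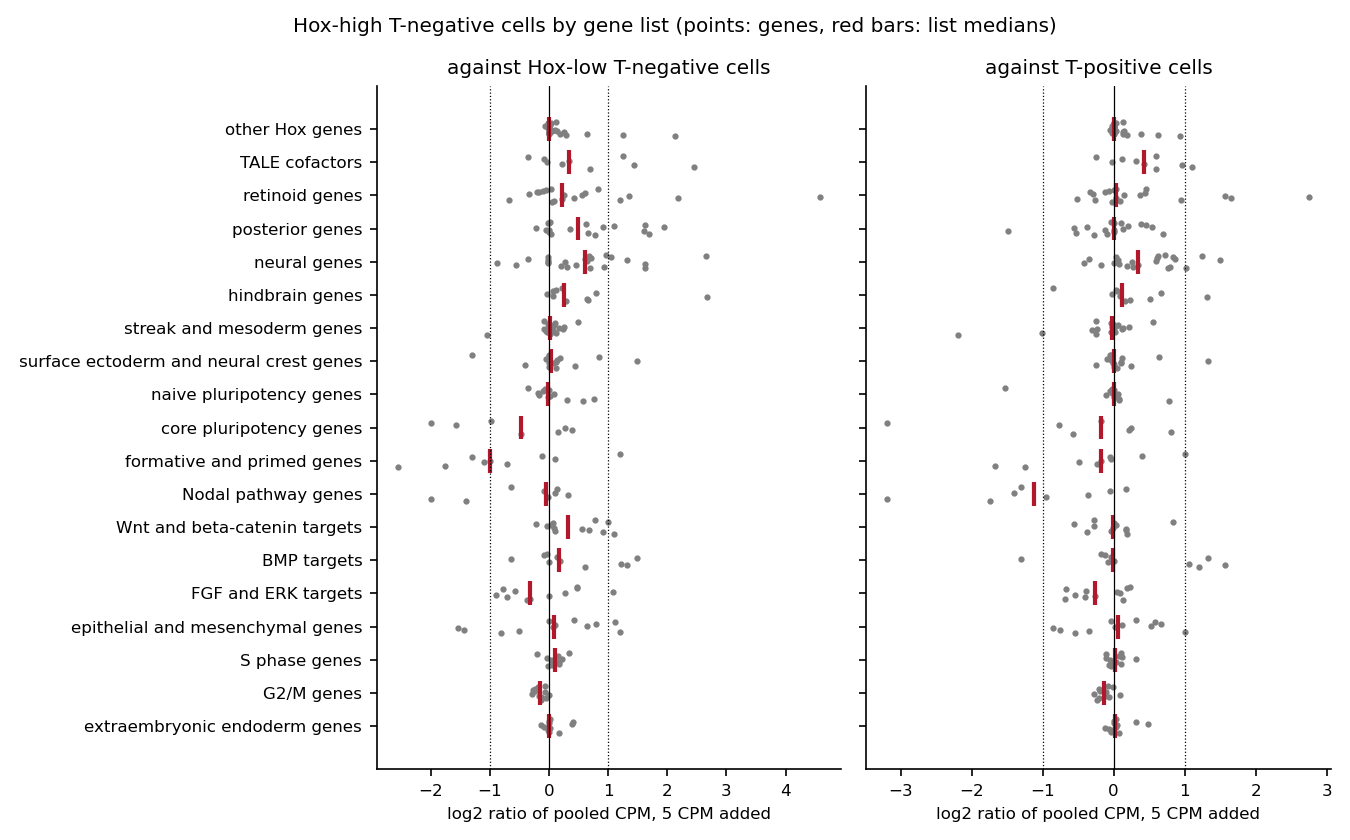
Log2 ratio of pooled levels, with 5 CPM added, of Hox-high cells over Hox-low cells (left) and over T-positive cells (right) for the genes of 19 lists, with dotted lines at a 2-fold difference. Grey points are genes and red bars list medians. The medians of formative and primed genes lie to the left and those of neural and posterior genes to the right of zero on the left side, and that of Nodal pathway genes lies farthest to the left on the right side.

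Fewer genes set Hox-high cells apart from T-positive cells. Over 7694 genes 31 (0.403%) were at least 2-fold higher in Hox-high than in T-positive cells and 19 (0.247%) lower, with a median over all genes of 0.011. The higher side was led by Crabp1 at 512 against 71.5 CPM, Hes3 at 33.8 against 3.90 CPM, Stra6 at 23.8 against 4.12 CPM, G0s2 at 31.3 against 6.54 CPM, Plxna2 at 13.6 against 1.18 CPM, Greb1l at 46.2 against 12.0 CPM, Id2 at 77.9 against 22.9 CPM and Crabp2 at 245.7 against 79.7 CPM. The lower side was led by Tdgf1 at 1.28 against 52.1 CPM, Trh at 30.7 against 171.7 CPM, Eomes at 1.28 against 23.8 CPM, Nodal at 9.05 against 42.1 CPM, Fgf5 at 9.69 against 41.7 CPM, Nanog at 16.8 against 57.7 CPM, Pmepa1 at 2.34 against 15.7 CPM and Fgf8 at 30.4 against 94.5 CPM. Of the 8 Nodal pathway genes 4 were lower, among them Nodal, Tdgf1 and Smad7, with a median of -1.12. Of 18 posterior genes Fgf8 alone differed 2-fold, and the median was 0.00, or 0.30 over the 8 genes of at least 10 CPM. A gene passes this floor by its level in either group, so the second median only describes the genes that pass. Of the 3 groups, the level of Otx2 was lowest in Hox-high, intermediate in T-positive (31.2 CPM) and highest in Hox-low cells. Fgf8 was in another order, highest in T-positive and lowest in Hox-low cells.

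The Hox threshold divides T-positive cells as well, and this division was looked at after the values above were seen. A Hox sum of at least 50 CPM was found in 97 of the 210 T-positive cells (46.2%), against 35.1% of T-negative cells. Between these 97 and the other 113 cells 23 of 7638 genes (0.301%) were at least 2-fold higher and 7 (0.0916%) lower. Crabp1 was at 128 and 26.1 CPM, Epha4 at 112 and 23.3 CPM, Meis2 at 208 and 65.3 CPM, Olig3 at 34.4 and 4.89 CPM, Gbx2 at 96.2 and 37.6 CPM and Otx2 at 15.1 and 44.0 CPM. The direction was that of the T-negative cells in each of these 6 genes. Differences of other genes were smaller, with Utf1 at 196 and 266.7 CPM, Dnmt3b at 457 and 557 CPM, Nodal at 30.8 and 51.2 CPM and Tdgf1 at 37.1 and 64.0 CPM. Sox2 was level at 51.7 and 52.4 CPM.

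Within the T-negative cells, some genes were graded with the Hox sum and others were not, a view again chosen with the data in hand. The cells were placed in 5 ranges, of 221 cells at 0 CPM, 68 above 0 and below 50 CPM, 42 from 50 to 100 CPM, 53 from 100 to 200 CPM and 61 from 200 CPM. Epha4 stood at 14.8, 41.5, 99.96, 166 and 211 CPM along these ranges, and Wnt8a at 13.1, 29.8, 60.1, 66.2 and 111 CPM. Otx2 stood at 91.7, 62.6, 14.3, 8.15 and 8.94 CPM, and Dnmt3b at 833.7, 638, 441, 379 and 290.6 CPM. These 4 genes differed already between cells without any UMI of the 3 Hox genes and those with a low level. The cells of these 2 lower ranges had median depths of 58429 and 64844 UMIs. Whether those at 0 CPM had missed a Hox transcript in capture was not tested. Crabp1 was closer in these cells, as it stood at 15.9 and 18.9 CPM in the 2 lower ranges and at 355, 387 and 750.4 CPM in the 3 upper ones. Hes3 stood at 0.150 and 0.673 CPM, from 2 and 3 UMIs, too few to compare, and then at 24.2, 29.2 and 45.6 CPM. Some of the lower genes had their highest level in the cells above 0 and below 50 CPM. Trh stood at 88.8, 191.4, 23.8, 36.1 and 31.1 CPM along the ranges, Nodal at 29.6, 39.9, 12.5, 9.09 and 6.34 CPM and Tdgf1 at 18.1, 25.4, 1.47, 0.314 and 2.02 CPM. Sox2 followed no order, at 92.1, 64.0, 96.3, 102.5 and 86.8 CPM.

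**Figure D5:**
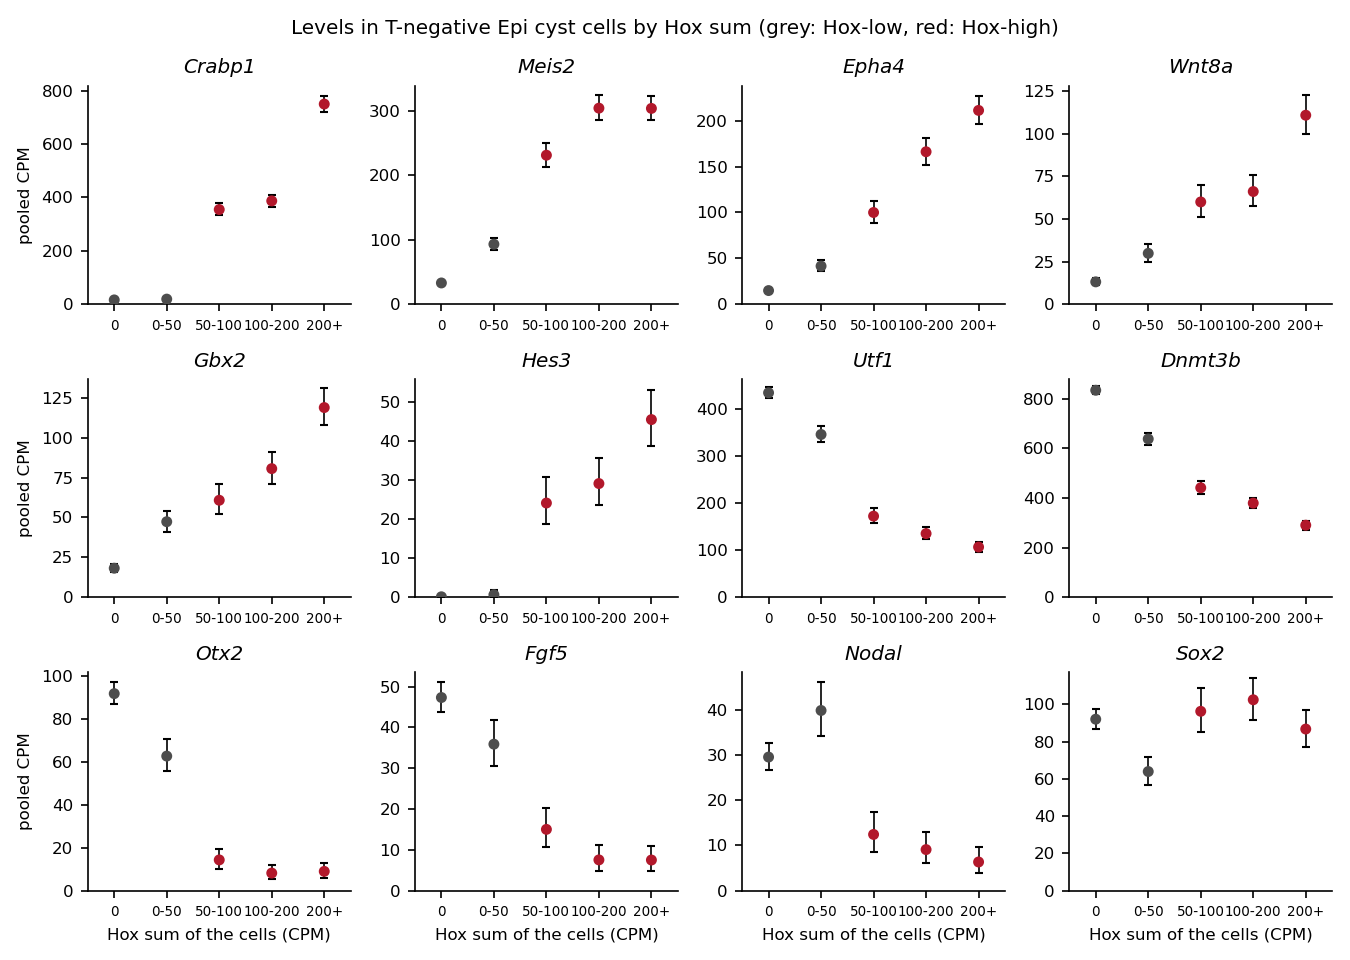
Pooled CPM (y axes, from 0) of 12 genes in T-negative Epi cyst cells grouped by the summed CPM of Hoxb1, Hoxb2 and Hoxa2 (x axes), with exact 95% Poisson intervals. Grey points are Hox-low and red points Hox-high cells. Epha4, Gbx2 and Wnt8a are higher and Otx2, Utf1 and Dnmt3b lower from range to range or nearly so, whereas Crabp1 and Hes3 are low in both grey ranges and high in all red ones.

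Hox-high cells differed widely among themselves in Crabp1. Since the highest Hox-low cell had 171 CPM of Crabp1, this level was taken, after the values were seen, to divide them. Of the 156 Hox-high cells 60 (38.5%) were above it and 96 were not, and of the T-positive cells 11 (5.24%) were above it, 10 of them with a high Hox sum. The 60 cells had a median Hox sum of 216 CPM, against 135 CPM in the 96, at median depths of 54986.5 and 59632.5 UMIs. Between them 55 of 7845 genes (0.701%) were at least 2-fold higher in the 60 cells and 42 (0.535%) lower, without Crabp1 and the genes of the rule. The highest were Prrx2 (48.4 and 5.48 CPM), Plxna2 (32.7 and 2.99 CPM), the Wnt antagonist gene Sfrp1 (108 and 26.1 CPM), Hes3 (67.4 and 14.95 CPM), Efnb1 (55.5 and 12.5 CPM), Greb1l (89.0 and 22.3 CPM), Msx1 (22.3 and 2.99 CPM) and the imprinted gene Mest (268.6 and 82.2 CPM). They were followed by Stra6 (45.7 and 11.5 CPM), Ptn (226.5 and 73.1 CPM), Dach1, Zeb1, Pla2g7, Crabp2 (413 and 152 CPM) and Sox1 (24.0 and 5.98 CPM). The lowest were the growth arrest gene Gadd45g (4.16 and 45.4 CPM), Trh (5.64 and 44.7 CPM), the threonine dehydrogenase gene Tdh (10.4 and 62.0 CPM), Meg3 (0 and 13.8 CPM), Cldn7 (11.6 and 55.0 CPM), Enpp2 (0.890 and 15.3 CPM) and Platr10 (4.16 and 26.3 CPM). Lefty1 (8.61 and 39.5 CPM), Fgf5 (1.19 and 14.5 CPM), L1td1 (90.8 and 284 CPM) and Utf1 (57.9 and 179 CPM) were also among the lowest 15. For Gadd45g and Tdh the 96 cells were near the Hox-low cells, which had 40.9 and 61.9 CPM.

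Other genes were high in both kinds of Hox-high cells. Olig3 stood at 51.4 CPM in the 60 and 48.7 CPM in the 96 cells, Epha2 at 60.3 and 56.3 CPM and Wnt8a at 90.8 and 75.4 CPM. Meis2 was at 347 and 248 CPM and Epha4 at 209.5 and 137.9 CPM, against 48.0 and 21.5 CPM in Hox-low cells. Both were therefore above Hox-low cells also without a high level of Crabp1. Otx2 was at 3.27 and 14.1 CPM, both under the 84.4 CPM of Hox-low cells.

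To ask whether these cells are alike beyond the rule, each Epi cyst cell was compared with its 15 nearest cells in 20 principal components of 2000 variable genes, with all Hox genes and T left out. For Hox-high cells, 57.9% of the neighbours were Hox-high cells, which make up 23.8% of all, 27.4% were T-positive (32.1% of all) and 14.7% Hox-low (44.1% of all). With every listed gene left out too, a choice made after the first result, the shares were 56.4%, 28.5% and 15.2%. The other groups were rich in their own kind as well. With all Hox genes and T left out, 65.9% of the neighbours of Hox-low cells were Hox-low, and 53.7% of those of T-positive cells were T-positive. In single cells, UMIs of Crabp1, Meis2 and Epha4 were found together in 76.9% of Hox-high, 21.8% of Hox-low and 41.4% of T-positive cells. These genes were named above as among the highest in the same Hox-high cells over Hox-low cells. A larger share in Hox-high than in Hox-low cells was thus favoured by the choice of genes. The shares are a description and cannot show whether the cells are alike beyond the rule.

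Cells of this kind were not found in the other libraries, apart from 1 cell. In BELAs 0 of 868 embryonic cells met the rule, which allows a share of up to 0.346%, at a median of 78973 UMIs per cell, deeper than the Hox-high cells. In VE cysts 1 of 44 embryonic cells did. The genes high in Hox-high cells were low in embryonic cells of BELAs too, with Meis2 at 0.430 CPM, Hotairm1 at 0.444 CPM, Wnt8a at 0.250 CPM and Hes3 at 0.0555 CPM, and Olig3 at 0 UMIs, which allows up to 0.0416 CPM. Crabp1 was at 12.0 CPM and Cited2 at 40.9 CPM, near the Hox-low cells. The type of structure, the doxycycline, the medium and the library cannot be told apart in this comparison.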

How the data were processed

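Single-cell RNA sequencing (10x Genomics 3′ v3.1) was analysed for 3 libraries, BELAs, Epi cysts and VE cysts. The authors demultiplexed the reads, aligned them to mm10 and counted them with Cell Ranger 4.0.0, per the labels and the study's methods, and deposited the UMI counts, not normalised, of 32285 genes. Following the study, barcodes were kept from 4000 genes upward if mitochondrial UMIs did not exceed 10%, which left 1410, 657 and 625 of 2220, 1076 and 881 barcodes, with median depths of 82741.5, 60160 and 58554 UMIs. A cell was embryonic if it had more UMIs of Pou5f1, Sox2, Nanog and Fgf4 than of Gata6, Sox17, Dab2 and Cubn. The cells and the gene lists were chosen with earlier results of these data known.

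Levels (CPM) divide the UMIs of a gene, summed over the cells of a group, by the total UMIs of these cells. Ratios carry exact conditional 95% intervals. With 1 library per type and no replicates, no test was made, and a difference between libraries has no replicate check. Genes named are the 3 Hox genes and T, the 15 highest and 12 lowest against Hox-low cells, the 8 highest and 8 lowest against T-positive cells, and genes of 26 lists, of which some are not reported here. Genes named from the division by Crabp1 were taken from the 15 highest and 15 lowest, a rule set after the values were seen, beside genes already named. Genes were matched to a GENCODE annotation of GRCm38 by identifier. Doublets were called with Scrublet in scanpy 1.11.5 and kept. Thinned shares use 40000 UMIs per cell, drawn without replacement, and left out 17 Hox-high, 33 Hox-low and 14 T-positive cells. The ratio code was tested on simulated data. Python 3.11.15, numpy 2.4.6, scipy 1.17.1, pandas 2.3.3 and matplotlib 3.10.9 were used.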

Additional observations from a re-analysis of the deposited data

How the results depend on the processing

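The number of Hox-high cells was 156, and 187 or 114 with a Hox threshold of 25 or 100 CPM. The 77 genes at least 2-fold higher became 25 with 20 CPM added and 23 among genes of at least 50 CPM. The 28 genes at least 2-fold lower became 18 with a threshold of 25 CPM, 18 in thinned cells, 48 and 10 with 1 and 20 CPM added, and 11 among genes of at least 50 CPM. The list median of other Hox genes was 0.00 and 2.13 among members of at least 10 CPM, which leaves 1 gene. In the same way that of retinoid genes went from 0.22 to 0.62 and that of posterior genes from 0.49 to 1.61. That of hindbrain genes went from 0.26 to 1.45, over 2 genes, and that of Nodal pathway genes from -0.05 to -0.64. A gene passes this floor by its level in either group, and some pass only through the group where they are high. These medians therefore describe the genes that pass and show no larger difference of a list. With 1 and 20 CPM added, the posterior median was 0.75 and 0.18 and the neural median 1.11 and 0.19. All 16 genes followed through 11 alternatives kept their direction, and 12 stayed at least 2-fold apart throughout. The exceptions were Tdgf1, Trh, Nodal and Dnmt3b, whose log2 ratios were smallest at -0.91 (20 CPM added), -0.64 (25 CPM threshold), -0.85 (20 CPM added) and -0.98 (thinned cells). One of the alternatives, Hox-low cells with no UMI of the 3 Hox genes, was added after the data were seen. Thinning applies the rule to fewer T and Hox UMIs and gave 164 Hox-high and 273 Hox-low cells. No paired analysis was possible because each type of structure has 1 library. With 20 CPM added, Hes3 and Stra6 stood at 1.41 and 1.04 in place of 2.88 and 2.18. Depth limits low genes most, as pooled levels under 1 CPM rest on few UMIs.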
